A study of Mus musculus with 2 samples.

Results

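The genes described here code for the chaperones of the cytosol and the mitochondria, the proteins that help other proteins to fold, refold or cross membranes. They were chosen by symbol, as all listed genes of the TRiC ring (*Tcp1* and *Cct2* to *Cct8*), of the heat shock families *Hspa*, *Hspb*, *Hspd*, *Hspe*, *Hsph* and *Hsp90a*, and of the J protein classes *Dnaja*, *Dnajb* and *Dnajc*. Chaperones of the endoplasmic reticulum (ER) under 6 named symbols (*Hspa5*, *Hsp90b1*, *Dnajb9*, *Dnajb11*, *Dnajc3* and *Dnajc10*) were left out. Of 79 matching genes, 67 reached 20 counts over both libraries together and make up the set, out of 13027 genes that passed the same minimum. The other 12 were too scarce to compare, and 5 of them had 0 counts in either library. The symbol rule is wider than its name. It also takes in *Hspb11*, known as an intraflagellar transport gene, *Hspa13* and several *Dnajc* genes whose products sit at the ER, and the pseudogene *Dnajc19-ps*.

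PolyA RNA was sequenced from the liver of FVB/N mice that had received c-Myc through hydrodynamic injection, in which a large volume pushed quickly into the tail vein carries DNA into hepatocytes. There were 2 libraries, 1 with no treatment (untreated) and 1 treated with TSA, and both carry the c-Myc injection. The labels give neither dose, time, age nor sex, and do not say whether a library came from tumour, from surrounding liver, from 1 animal or from a pool. A library with neither c-Myc nor TSA, and TSA without c-Myc, are not analysed here. The study asked how TSA bears on liver cancer driven by c-Myc, per its title.

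The untreated library held 17281523 counts and the TSA library 17088227. With 1 library per group no test between conditions was possible, and the intervals in parentheses cover counting error at the 95% level only. Ratios are TSA over untreated after TMM scaling, a scaling that takes most genes to be equal. With total counts every ratio is lower by a factor of 1.80, so for the named chaperone genes a call that changes between both scalings is given. A gene is called when it differs by at least 2-fold and its interval excludes 1. With TMM, 26.0% of all tested genes were called higher and 27.4% lower. The premise of that scaling is therefore in doubt here, and the size of each ratio is uncertain beyond its interval. FPKM values are the deposited counts divided by gene model length and library total, and levels of different genes are compared on that scale alone. Markers of several cell types differed between the libraries. All 8 hepatocyte markers were higher with TSA (summed 4384 against 57266 FPKM, *Alb* the most abundant of them), and all 6 proliferation markers were lower (summed 404 against 3.10 FPKM). Endothelial markers were higher in 5 of 6 cases (3 with total counts, summed 26.5 against 111.6 FPKM), and macrophage markers in 5 of 6 (3 with total counts, summed 102 against 136 FPKM, with *Cd68* lower). With enough counts to compare, all 4 erythroid markers, both neutrophil markers and 3 of 4 lymphocyte markers (2 with total counts) were higher. Of 6 stellate and fibroblast markers 3 were higher and 1 lower (2 and 3 with total counts), with *Dcn* 15.4-fold higher and *Col1a1* 6.13-fold lower. Of 4 cholangiocyte markers 2 were higher (1 with total counts) and 2 lower, *Krt7* by 31.6-fold and *Epcam* by 12.3-fold. In bulk liver, fewer cells of a type and less RNA per cell cannot be told apart, and the part of these markers' cells in the ratios below was not tested.

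Chaperones work in relays. HSP70 proteins grip short greasy stretches of an unfolded protein in a cycle driven by ATP, J proteins bring them their clients, and exchange factors such as HSP110 make them let go. HSP90 takes over late folding steps of kinases and receptors, the TRiC double ring encloses actin, tubulin and other clients, and HSP60 with its lid HSP10 does the same inside mitochondria. Small heat shock proteins hold unfolded proteins without using ATP. In rapidly growing cells the constitutive chaperones are abundant because new protein is made quickly, whereas a separate inducible group is switched on by heat shock factor 1 (HSF1) through heat shock elements in promoters.

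Some matches to the short sequence that HSF1 is known to read are shown first, because the genes that carry them went in opposite directions here. A match of letters is not a binding site, and binding was not measured. A heat shock element is built of GAA units in alternating orientation, and was searched as the inverted pairs GAANNTTC or TTCNNGAA, each of which is its own reverse complement. The first 2 lines give the 130 bases before the annotated starts of *Hspa1a* and *Hspa1b*, the inducible HSP70 genes. The others give 30 bases around the pair or pairs of 6 further genes, from RefSeq on GRCm38.p6, 5′ to 3′ on the strand of the gene, with the units of each pair in capitals.
Hspa1a (chr17:34972157-34972286, minus strand): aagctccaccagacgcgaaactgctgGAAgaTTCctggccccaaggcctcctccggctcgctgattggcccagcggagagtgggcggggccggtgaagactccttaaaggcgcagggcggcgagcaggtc
Hspa1b (chr17:34959239-34959368, minus strand): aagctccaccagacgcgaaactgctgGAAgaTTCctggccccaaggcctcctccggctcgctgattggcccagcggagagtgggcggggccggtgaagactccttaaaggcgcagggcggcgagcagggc
Hspb8 (chr5:116422844-116422873, minus strand): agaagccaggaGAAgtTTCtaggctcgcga
Dnajb4 (chr3:152193841-152193870, minus strand): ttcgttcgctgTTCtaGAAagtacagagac
Dnaja1 (chr4:40722333-40722362, plus strand): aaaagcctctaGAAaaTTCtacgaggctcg
Hspb1 (chr5:135887801-135887830, plus strand): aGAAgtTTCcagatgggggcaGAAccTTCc
Hspe1 (chr1:55088053-55088082, plus strand): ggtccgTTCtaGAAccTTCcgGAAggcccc
Cct5 (chr15:31601862-31601891, minus strand): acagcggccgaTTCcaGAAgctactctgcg
The genes of the first 5 lines were higher in the TSA library, *Hspb1* and *Cct5* were lower, and *Hspe1* was below its untreated level without being called. The *Hspa1a* and *Hspa1b* stretches are identical at 129 of 130 bases. The *Hspe1* site holds 4 units in a row and lies also in a window of *Hspd1*, its neighbour on the opposite strand. The *Hspb8* pair lies just past the annotated start, and the *Dnajb4* pair belongs to the second of its annotated starts.

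A promoter window of 300 bases (250 before the start and 50 after it) was found for 53 of the 67 genes. Of these, 16 (30.2%) held an inverted pair in at least 1 window, against 14.1% of 10035 tested genes with a window. By window the pair stood in 25% of the 72 chaperone windows and in 12.0% of the 12871 windows of tested genes. Over all 32851 windows, those of untested genes included, it stood in 15.1%. An element of 3 or more units stood in *Hspd1*, *Hspe1*, *Hsph1* and *Dnajb6*, which is 7.55% of the chaperone genes and 0.578% of tested genes with a window. Of the 14 higher genes with a window 7 held a pair, as did 6 of 18 lower genes and 3 of 21 that were neither. Those 7 include both *Hspa1a* and *Hspa1b*, near copies whose 250 bases before the start are identical at 247. The pair was therefore found in front of genes of either direction. No 3-unit element stood in the windows of the 14 higher genes, which says only that these letters are not in those windows.

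Across the 67 genes, 16 (23.9%) were higher and 23 (34.3%) were lower with TSA, where 26.0% of all genes tested were higher and 27.4% lower. With total counts 10 were higher and 34 lower (14.9% and 50.7%), where 16.0% and 48.7% of all genes were. Their median log2 ratio lay at -0.05 relative to the median of all genes, which scaling does not move. As a list the chaperones thus lay near the background, and the contrasts described below are between roles and levels within it. They took 2.29% (2.28 to 2.30) of all counts in the untreated library and 0.698% (0.694 to 0.702) in the TSA library, a 3.28-fold smaller share. A share also moves with the other genes of its library. With total counts the median log2 ratio of all tested genes was -0.963, and *Alb* alone had 45600 and 1426219 counts. How much of the smaller share goes with such genes was not tested.

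**Figure D1:**
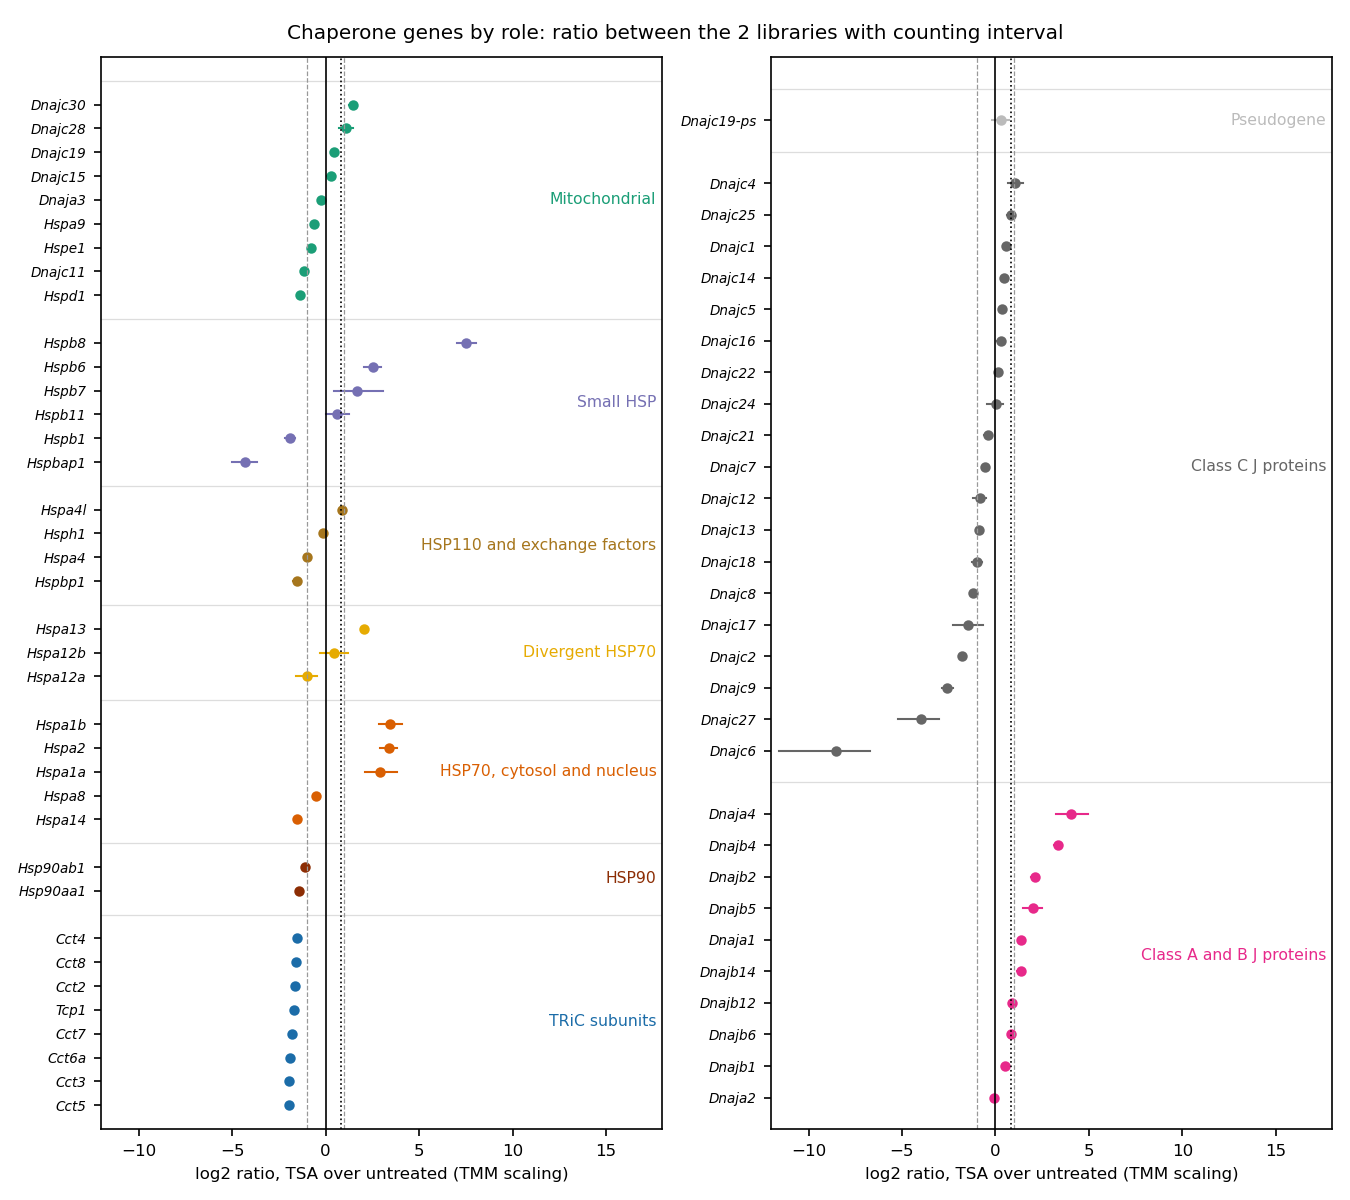
Ratio of each of the 67 chaperone genes between the TSA and the untreated library, on a log2 axis with TMM scaling, grouped by role; points are ratios and bars the 95% counting intervals. Dashed lines mark 2-fold in either direction, the dotted line marks equal shares of total counts, all 8 TRiC subunits lie left of the lower dashed line, and *Hspb8* (184-fold higher) and *Dnajc6* (374-fold lower) lie farthest out.

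The calls were also set beside those of all genes of like abundance. In classes chosen after the values were seen, 14 chaperone genes had a mean of at least 100 FPKM over both libraries: the 8 TRiC subunits, *Hsp90aa1*, *Hsp90ab1*, *Hspa8*, *Hspa9*, *Hspd1* and *Hspe1*. Of these 11 (78.6%) were lower and 0 higher with TMM, and all 14 were lower with total counts. The 8 TRiC subunits reached this class only through the untreated library (199 to 441 FPKM, against 38.4 to 62.6 with TSA). Their lower calls are therefore tied to how the class was set, and its share adds no support to them. Among all 702 tested genes of that abundance 27.8% were lower and 44.2% higher (39.0% and 36.3% with total counts). From 10 to under 100 FPKM, 5 of 26 chaperone genes were higher (19.2%) and 6 lower (23.1%), near the 21.6% and 28.5% of all 4746 genes there. Under 10 FPKM, 11 of 27 chaperone genes were higher and 6 lower (7 and 8 with total counts), against 27.0% and 26.7% of 7579 genes (15.7% and 46.6% with total counts).

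**Figure D2:**
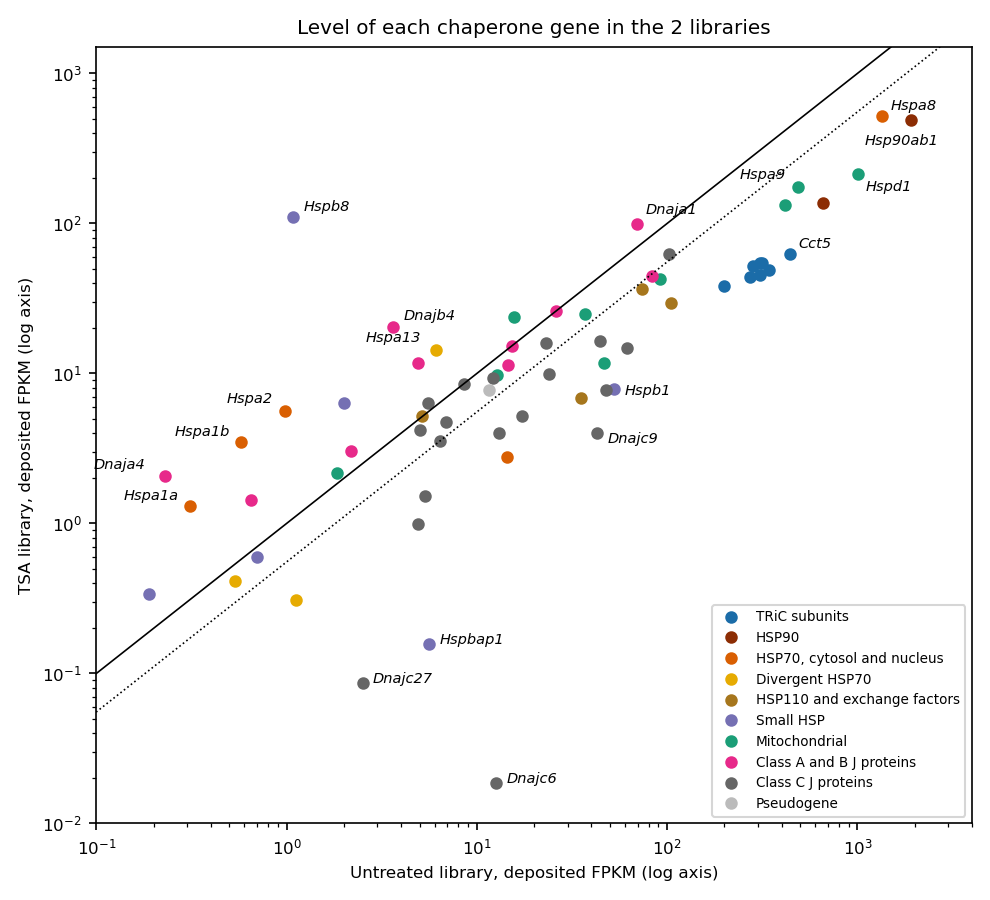
Deposited FPKM of the 67 chaperone genes in the untreated library (x) and the TSA library (y), both on log axes, coloured by role. The solid line marks equal FPKM and the dotted line equality after TMM scaling; the abundant genes at the upper right (*Hsp90ab1*, *Hspa8*, *Hspd1* and the TRiC subunits) lie below both lines, and *Hspb8* lies far above them.

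The TRiC subunits were lower as a block. TRiC, also called CCT, is built from 8 different subunits that stand once in each ring, and all 8 widely expressed genes were lower, between 2.87-fold and 3.90-fold. *Cct5* had 15793 counts (441 FPKM) without treatment and 2218 (62.6 FPKM) with TSA, and was 3.90-fold (3.73 to 4.08) lower. *Cct3* had 11611 and 1631 counts (343 and 48.8 FPKM) and was 3.90-fold (3.70 to 4.11) lower. *Cct6a* had 11579 and 1682 counts (308 and 45.3 FPKM) and was 3.77-fold (3.58 to 3.97) lower. These 3 genes had the largest differences of the ring.
*Cct7* had 11587 and 1833 counts (273 and 43.7 FPKM), 3.46-fold (3.30 to 3.64) lower. *Tcp1*, which codes for the first subunit, had 13647 and 2327 counts (316 and 54.5 FPKM), 3.21-fold (3.08 to 3.36) lower. *Cct2* had 11516 and 2011 counts (307 and 54.2 FPKM), 3.14-fold (2.99 to 3.29) lower. The middle of the ring thus differed by a little over 3-fold.
*Cct8* had 11721 and 2121 counts (284 and 51.9 FPKM), 3.03-fold (2.89 to 3.17) lower. *Cct4* had 6754 and 1290 counts (199 and 38.4 FPKM) and the smallest difference, 2.87-fold (2.70 to 3.05). The interval of *Cct4* overlaps those of *Cct2* and *Cct8* and none of the other 5, so the subunits differed from each other by more than counting error. *Cct6b*, the testis form of the sixth subunit, had 1 and 6 counts and was too scarce to compare.

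Because the subunits are needed in equal numbers, their proportions were also compared within each library, where no scaling enters. *Cct5* had the highest and *Cct4* the lowest FPKM in both libraries. *Cct5* stood at 1.43 times the median subunit (307.5 FPKM) without treatment and at 1.24 times the median (50.3 FPKM) with TSA, and *Cct4* at 0.646 and 0.763 times. The subunits lay closer together in the TSA library, with a coefficient of variation of 15.1% against 22.1%, and 1.63-fold against 2.22-fold between the highest and the lowest. TRiC took 0.545% of all counts without treatment and 0.0884% with TSA. The median log2 ratio of the 8 subunits was -1.63 relative to all genes. All 6 proliferation markers were lower in the same library, and their part in this result was not tested.

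**Figure D3:**
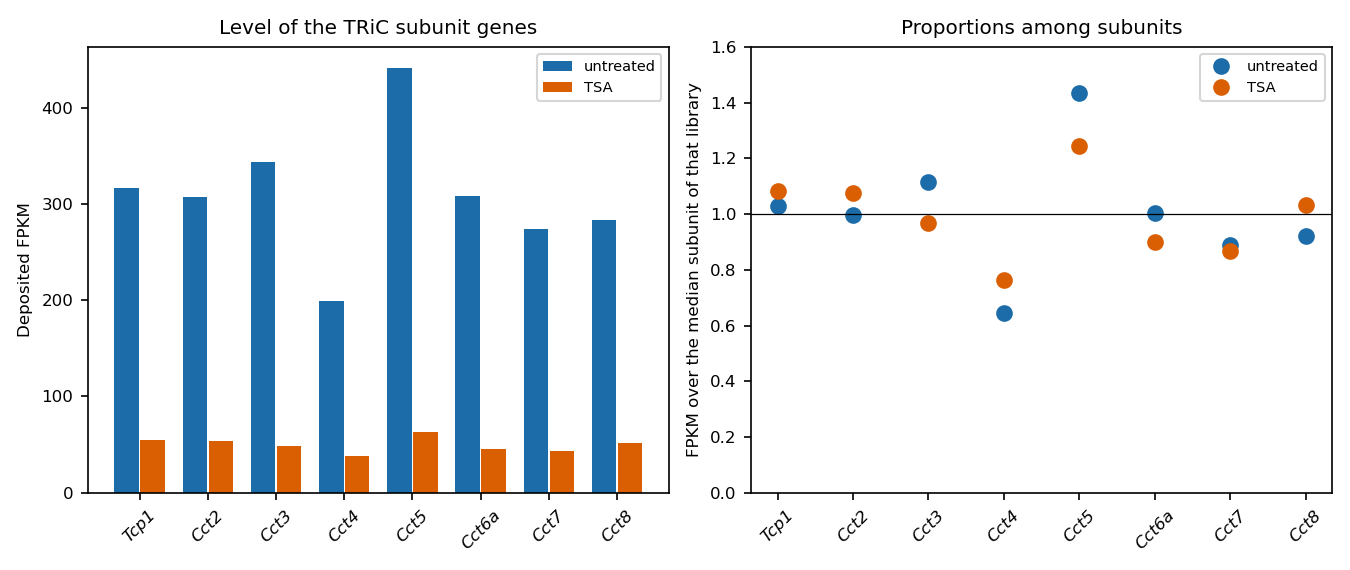
Left, deposited FPKM of the 8 TRiC subunit genes in the untreated (blue) and TSA (orange) libraries; right, the same values divided by the median subunit of their library, with the line at equality. All 8 orange bars are shorter, and *Cct5* is the highest and *Cct4* the lowest subunit in both libraries.

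The cytosolic HSP90 genes were both lower. *Hsp90ab1*, the constitutive form, had 82584 counts (1906 FPKM, rank 10 of 21878 listed genes) without treatment and 20858 (487 FPKM, rank 132) with TSA, and was 2.17-fold (2.14 to 2.20) lower. *Hsp90aa1*, the form that also responds to stress, had 32639 and 6639 counts (663 and 136 FPKM) and was 2.69-fold (2.62 to 2.77) lower. The constitutive form outweighed the other by 2.88 times per length without treatment and by 3.57 times with TSA.

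Among HSP70 genes of the cytosol and nucleus the inducible ones were higher and the abundant constitutive one was not. *Hspa8*, which codes for the constitutive HSC70, had 49125 counts (1351 FPKM, rank 26) and 18596 counts (517 FPKM, rank 122). It stood 1.45-fold (1.42 to 1.47) below the untreated level and was not called with TMM, and it was called lower, by 2.61-fold, with total counts. *Hspa1a* and *Hspa1b*, whose products are the stress-inducible HSP70, were scarce but higher: 15 and 62 counts (0.310 and 1.30 FPKM) for *Hspa1a*, 7.54-fold (4.24 to 14.3) higher, and 28 and 168 counts (0.577 and 3.50 FPKM) for *Hspa1b*, 11.0-fold (7.31 to 17) higher. Both stayed called with total counts.
The copies are nearly alike, and 66.3% of the 50-base stretches of the *Hspa1a* transcript stand also in transcripts of other genes, mostly *Hspa1b*, so how reads were divided between them is uncertain. Summed, they had 43 and 230 counts and were 9.76-fold (7.02 to 13.9) higher. Per length *Hspa8* outweighed their sum 1524-fold without treatment and 108-fold with TSA. The inducible HSP70 thus stayed a small fraction of the constitutive one in both libraries.
*Hspa2*, best known from the testis, had 47 and 266 counts (0.981 and 5.62 FPKM) and was 10.3-fold (7.55 to 14.4) higher. *Hspa14* had 1464 and 279 counts (14.4 and 2.78 FPKM) and was 2.88-fold (2.53 to 3.28) lower. Its product pairs with that of *Dnajc2* on the ribosome, where the pair meets new protein chains. *Dnajc2* had 1760 and 283 counts (47.9 and 7.79 FPKM) and was 3.41-fold (3.0 to 3.88) lower, so both genes of that pair were lower.

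Among the more distant relatives of HSP70, *Hspa13*, whose product sits at the ER, had 489 and 1124 counts (6.12 and 14.2 FPKM) and was 4.19-fold (3.77 to 4.67) higher. *Hspa12a* had 132 and 36 counts and was 2.01-fold (1.38 to 2.99) lower, at the edge of the call, which was lost with the size factors of DESeq2 and with upper quartile scaling. *Hspa12b*, an endothelial gene, had 38 and 29 counts, a ratio of 1.39 (0.828 to 2.32), and was not distinguishable from equality at this depth. Each of these genes lay under 15 FPKM in either library.

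The exchange factors were below their untreated levels with 1 exception. *Hspbp1*, for an exchange factor unrelated to HSP110, had 1005 and 193 counts (35.2 and 6.83 FPKM) and was 2.85-fold (2.44 to 3.35) lower. *Hspa4*, the HSP110 gene with the highest level in the untreated library, had 8377 and 2344 counts (104 and 29.6 FPKM) and stood at 1.96-fold (1.87 to 2.05) below, just short of the call. *Hsph1*, a heat-inducible HSP110 gene and the highest of them with TSA, had 5605 and 2755 counts (73.3 and 36.5 FPKM) and stood at 1.11-fold (1.06 to 1.17) below. Both were called lower with total counts, by 3.53-fold and 2.01-fold. *Hspa4l* was the exception, with 867 and 872 counts and a ratio of 1.84 (1.67 to 2.02), and it lay at 1.02 with total counts.

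The small heat shock proteins held the widest contrast. *Hspb8*, whose product works with the exchange factor BAG3 to send misfolded proteins to autophagy, had 34 counts (1.08 FPKM, rank 10715) without treatment and 3425 counts (110 FPKM, rank 583) with TSA. The ratio was 184 (131 to 266), or 102 where total counts set the scale. None of its 50-base stretches stood in a transcript of another gene. *Bag3*, named after its value was seen, had 1283 and 817 counts (28.6 and 18.4 FPKM), a ratio of 1.16 (1.06 to 1.27), so it was not called while *Hspb8* was.
*Hspb1*, which codes for HSP25, the mouse form of HSP27, had 817 and 121 counts (52.4 and 7.84 FPKM) and was 3.70-fold (3.05 to 4.52) lower. *Hspb1* outweighed *Hspb8* by 48.3 times per length in the untreated library, and *Hspb8* outweighed *Hspb1* by 14.1 times in the TSA library. The leading small heat shock protein gene was therefore a different one in each library.
*Hspb6* had 54 and 170 counts (1.99 and 6.35 FPKM) and was 5.75-fold (4.21 to 7.96) higher. *Hspb7* had 9 and 16 counts, 3.24-fold (1.35 to 8.33) higher with TMM and not called with total counts. These genes and *Hspb8* are known from muscle. Of 6 muscle markers 4 had enough counts. They summed to 13.1 FPKM without treatment and 11.8 with TSA. The skeletal muscle markers *Acta1* and *Ckm*, with 7 and 79 counts in the untreated library, were at 0 in the TSA library. *Myl1*, another skeletal muscle marker, went the other way, with 0 and 2 counts. *Acta1* and *Myl1* were too scarce to compare. The smooth muscle markers *Myh11* (0.508 and 2.32 FPKM, 8.26-fold higher) and *Actg2* (0.484 and 2.05 FPKM, 7.63-fold higher) were higher, as were *Hspb6* and *Hspb7*. *Tagln*, another smooth muscle marker with 242 and 201 counts (8.83 and 7.42 FPKM), was not called, at a ratio of 1.52, or 0.840 with total counts. The part of muscle cells in these ratios was not tested.
*Hspbap1*, for a protein that binds HSPB1, had 724 and 20 counts (5.59 and 0.156 FPKM) and was 19.8-fold (12.7 to 32.7) lower. *Hspb11*, with 51 and 43 counts, was neither. *Hspb2*, *Hspb3* and *Hspb9* were too scarce to compare.

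The mitochondrial folding machines were below their untreated levels. *Hspd1*, which codes for the HSP60 ring, had 44306 counts (1001 FPKM, rank 52) and 9353 counts (214 FPKM, rank 283) and was 2.60-fold (2.54 to 2.65) lower. *Hspe1*, for its lid HSP10, had 5496 and 1746 counts (414 and 133 FPKM) and stood at 1.72-fold (1.63 to 1.82) below, which was not called with TMM and was called with total counts. The HSP60 message outweighed that of the lid by 2.42 times per length without treatment and 1.61 times with TSA. *Hspa9*, for mortalin, the mitochondrial HSP70 that also pulls proteins through the inner membrane, had 25524 and 9101 counts (485 and 175 FPKM) and stood at 1.54-fold (1.5 to 1.57) below, called lower with total counts alone. About 44.8% of the 50-base stretches of either *Hspd1* or *Hspe1* stand also in transcripts of other genes, pseudogenes among them, so reads may be divided among copies.
The mitochondrial J proteins were mixed. *Dnajc11*, for a protein of the outer membrane that joins the cristae-organising complex, had 4163 and 1037 counts (46.6 and 11.7 FPKM) and was 2.20-fold (2.05 to 2.36) lower. *Dnaja3*, for the J partner of mortalin known as TID1, had 4190 and 1926 counts (91.6 and 42.6 FPKM) and stood at 1.19-fold (1.13 to 1.26) below, called lower, by 2.15-fold, with total counts alone. *Dnajc19*, for a subunit of the import motor, had 624 and 474 counts, a ratio of 1.39 (1.23 to 1.56), and its relative *Dnajc15* had 414 and 275, a ratio of 1.21 (1.04 to 1.42). Both lay a little above equality with TMM and below it with total counts. On a list of further mitochondrial genes *Timm44*, for another part of that motor and named after its value was seen, was 2.28-fold lower.
*Dnajc30* had 314 and 468 counts (15.7 and 23.6 FPKM), 2.72-fold (2.35 to 3.15) higher, and *Dnajc28* 112 and 130 counts, 2.12-fold (1.63 to 2.75) higher. Neither was called with total counts, where they lay at 1.51 and 1.17. *Dnajc30* shares 24.3% of its 50-base stretches with *Bud23* and a further gene.

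**Figure D4:**
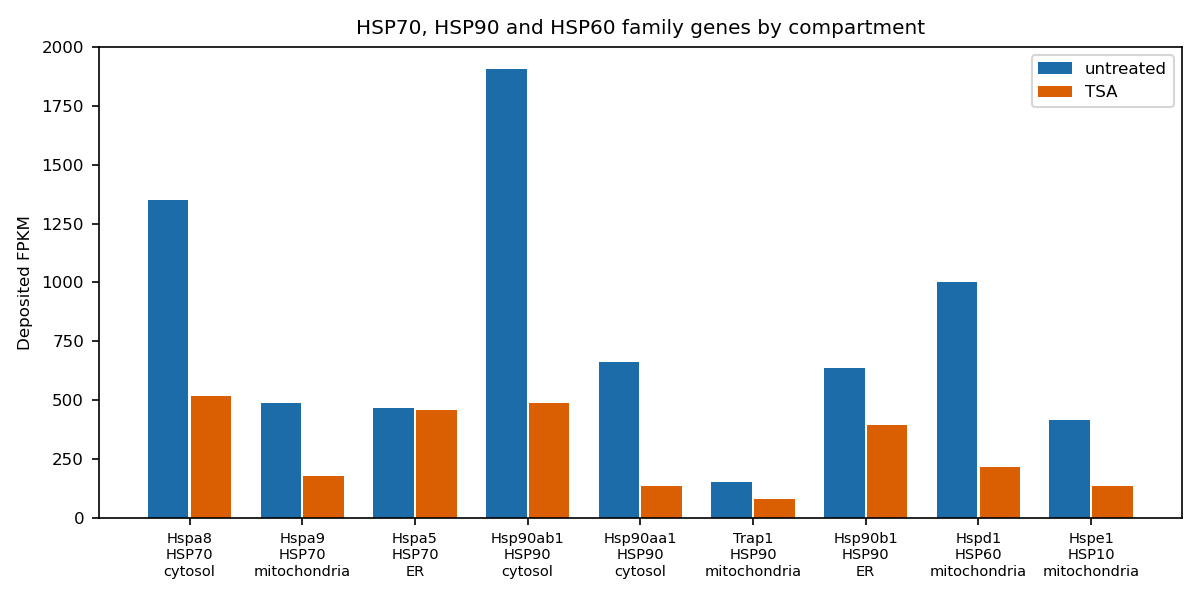
Deposited FPKM of the main HSP70, HSP90, HSP60 and HSP10 genes of each compartment in the untreated (blue) and TSA (orange) libraries. The cytosolic and mitochondrial bars are shorter with TSA (*Hsp90ab1* 1906 against 487 FPKM), as is that of the ER gene *Hsp90b1* (636 against 396 FPKM), and the bars of the ER gene *Hspa5* are nearly level (466 against 459 FPKM).

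The class A and B J proteins, which recruit HSP70 to general clients, were higher in many cases. Of 10 genes 6 (60.0%) were higher and none lower, against 4 (40.0%) and none with total counts, where 26.0% and 16.0% of all genes were higher, and their median log2 ratio lay at 1.46 relative to all genes. *Dnaja1*, for the main class A partner of HSC70, had 4338 counts (69.7 FPKM) and 6082 counts (98.8 FPKM), 2.56-fold (2.46 to 2.66) higher, or 1.42-fold and not called with total counts. *Dnaja2* had 4076 and 2150 counts (83.1 and 44.3 FPKM) and stood at 1.04-fold (0.986 to 1.09) below. These class A partners therefore changed places: *Dnaja1* stood at 0.838 times *Dnaja2* per length without treatment and at 2.23 times with TSA. Of the 50-base stretches of *Dnaja1*, 28.8% stand also in transcripts of other genes, so its level is uncertain, while *Dnaja2* shares none.
*Dnajb4*, for a class B protein of muscle and other tissues, had 190 and 1064 counts (3.61 and 20.5 FPKM) and was 10.2-fold (8.75 to 12.0) higher. *Dnaja4* had 14 and 126 counts (0.229 and 2.09 FPKM) and was 16.4-fold (9.43 to 30.9) higher. It shares 51.9% of its 50-base stretches with *Wdr61*, so the origin of its reads is uncertain. *Dnajb2*, which hands clients to the proteasome, had 353 and 829 counts (4.92 and 11.7 FPKM) and was 4.29-fold (3.78 to 4.87) higher.
*Dnajb5* had 48 and 104 counts and was 3.95-fold (2.78 to 5.69) higher. *Dnajb14*, for a J protein anchored in the ER membrane, had 370 and 513 counts and was 2.53-fold (2.21 to 2.90) higher, or 1.40-fold and not called with total counts. *Dnajb6*, known for holding back aggregation of polyglutamine proteins, had 1176 and 1164 counts (15.2 FPKM in either library), a ratio of 1.81 (1.66 to 1.96). *Dnajb1*, the classic heat-inducible J protein gene, had 810 and 631 counts (14.5 and 11.4 FPKM), a ratio of 1.42 (1.28 to 1.58), and *Dnajb12* a ratio of 1.82 (1.64 to 2.01). None of these 3 was called. The class A and B genes summed to 220.1 FPKM without treatment and 235 with TSA, while *Hspa8* went from 1351 to 517 FPKM. *Dnaja1* thus stood at 5.16% of the *Hspa8* level in the untreated library and at 19.1% in the TSA library.

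Class C J proteins carry the J domain on otherwise unrelated proteins and serve single tasks. Of 19 genes 6 were lower, 1 was higher and 12 were neither, and with total counts 11 were lower and none higher. The lower shares of 31.6% and 57.9% lie near the 27.4% and 48.7% of all genes. *Dnajc6*, for auxilin, which strips clathrin from vesicles and is best known from neurons, had 1364 counts (12.6 FPKM) without treatment and 2 with TSA, 374-fold (103 to 3089) lower. *Dnajc27*, for a small GTPase with a J domain, had 235 and 8 counts (2.50 and 0.0862 FPKM), 16.1-fold (8.04 to 37.7) lower. *Dnajc9*, for a histone chaperone, had 1212 and 112 counts (43.0 and 4.02 FPKM), 5.93-fold (4.88 to 7.26) lower. These were the lowest ratios of the class, and *Dnajc6* and *Dnajc27* had under 10 counts in the TSA library.
The remaining lower genes were *Dnajc2*, given above, and the splicing-related *Dnajc8* and *Dnajc17*. *Dnajc8* had 1479 and 349 counts (61.5 and 14.7 FPKM), 2.32-fold (2.07 to 2.62) lower, and *Dnajc17* 85 and 17 counts, 2.74-fold (1.61 to 4.92) lower. Of the 50-base stretches of *Dnajc17*, 25.4% stand also in transcripts of other genes, so its level is uncertain. *Dnajc4* was the higher gene, with 102 and 116 counts and 2.08-fold (1.58 to 2.74), and it lay at 1.15 with total counts. *Dnajc22* had the most counts of the class, 3073 and 1851 (103 and 62.5 FPKM), a ratio of 1.10 (1.04 to 1.16).
*Dnajc13*, for an endosomal protein, had 2613 and 785 counts and stood at 1.82-fold (1.68 to 1.98) below, and *Dnajc5*, for the cysteine string protein of secretory vesicles, had 1849 and 1270 counts, a ratio of 1.25 (1.17 to 1.35). The other 9 genes of the class that were neither lay between 1.96-fold below (*Dnajc18*) and a ratio of 1.80 (*Dnajc25*). Among them *Dnajc7*, *Dnajc12*, *Dnajc18* and *Dnajc21*, like *Dnajc13*, were called lower with total counts. The pseudogene *Dnajc19-ps* had 106 and 71 counts and shares 64.6% of its stretches with *Dnajc19*.

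The partners of these chaperones were read from lists of other genes. Of 18 HSP90 cochaperone genes 7 were lower and none higher (12 and none with total counts), which makes 38.9% and 66.7% lower against 27.4% and 48.7% of all genes, and their median log2 ratio lay at -0.74 relative to all genes. *Fkbp4*, for an immunophilin of steroid receptor complexes, had 16088 and 4508 counts and stood at 1.96-fold (1.89 to 2.02) below, called lower with total counts. *Stip1*, for the adaptor HOP that passes clients from HSP70 to HSP90, had 9474 and 2367 counts and was 2.19-fold (2.10 to 2.30) lower. *Ppid* and *Tomm34* were 3.72-fold (3.42 to 4.06) and 3.76-fold (3.20 to 4.45) lower. The cochaperones that were called thus lay on the side of both HSP90 genes.
Of 12 genes of prefoldin, which hands actin and tubulin to TRiC, and of TRiC helpers, 3 were lower and 1 higher (7 and none with total counts), and the lower shares of 25.0% and 58.3% lie near those of all genes. *Pfdn4* was 4.74-fold (3.82 to 5.94) lower and *Pfdn6* 3.23-fold (2.78 to 3.77) lower, while the helper genes *Txndc9* at 1.16-fold below, called lower with total counts, and *Uri1* at 1.01-fold below were neither. The 6 prefoldin genes, the other 4 named after their values were seen, ranged from *Pfdn4* to *Pfdn5* at a ratio of 1.35, with *Vbp1* 2.90-fold lower, *Pfdn1* 1.71-fold below and *Pfdn2* 1.66-fold below, a wider range than that of the ring. Of the 6 BAG genes, for exchange factors of HSP70, *Bag2* was lower, by 11.6-fold (9.09 to 15.1), and none was higher; *Bag6* stood at 1.93-fold below, called lower with total counts, and *Bag1* at 1.06-fold below.
Of 15 further genes of mitochondrial folding, import and proteolysis 3 were lower and 1 higher (8 and none with total counts), and the lower shares of 20% and 53.3% are under and near those of all genes. *Htra2*, for a protease of the intermembrane space, was 7.42-fold (6.47 to 8.55) lower and *Clpx*, for the unfoldase of the matrix protease ClpXP, 3.30-fold (3.09 to 3.53) higher with TMM and not called with total counts. *Trap1*, the mitochondrial HSP90 gene, stood at 1.06-fold (1.02 to 1.11) below and the protease gene *Lonp1* at 1.18-fold (1.12 to 1.23) below, called lower with total counts. The mitochondrial HSP90 gene thus stood nearer to equality with TMM than *Hspd1*.

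The heat shock factor genes did not share a direction. *Hsf1*, for the main activator of the heat shock response, had 1219 and 282 counts (28.5 and 6.67 FPKM) and was 2.37-fold (2.08 to 2.71) lower. *Hsf4* had 54 and 127 counts and was 4.29-fold (3.10 to 6.02) higher. *Hsbp1*, for a small protein that binds HSF1, had 1243 and 879 counts, a ratio of 1.29 (1.18 to 1.41). Of 18 textbook heat-inducible genes, most of them among the 67, 5 were higher and 5 lower (27.8% each, 4 and 9 with total counts), near the 26.0% and 27.4% of all genes, and their median log2 ratio lay at 0.04 relative to all genes. The higher ones were *Hspb8*, *Hspa1b*, *Hspa1a*, *Dnaja1* and *Cryab*, and the lower ones *Hsp90aa1*, *Hspd1*, *Hspb1*, *Stip1* and *Serpinh1*, where *Cryab*, for a small heat shock protein under another symbol, and *Serpinh1*, for the collagen chaperone HSP47, are named after their values were seen. As a list the heat-inducible genes thus lay at the background.

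The ER chaperones served as a comparison because they do the same work in the secretory pathway. Of 7 genes (the 6 left out and *Hyou1*) 2 were higher and none lower, against 1 and none with total counts. The higher shares of 28.6% and 14.3% lie near the 26.0% and 16.0% of all genes. Their median log2 ratio lay at 0.73 relative to all genes, and no test of the difference from the cytosolic genes was possible. *Hspa5*, for the ER HSP70 BiP, had 22827 and 22240 counts (466 and 459 FPKM), a ratio of 1.78 (1.75 to 1.81), and *Hsp90b1*, for the ER HSP90, had 30321 and 18648 counts (636 and 396 FPKM), a ratio of 1.12 (1.10 to 1.14). *Dnajb9* was 10.2-fold (9.04 to 11.6) higher and *Dnajc3* 2.73-fold (2.62 to 2.84) higher, the latter not called with total counts. Within a library, *Hspa8* outweighed *Hspa5* by 2.90 times per length without treatment and by 1.13 times with TSA, and *Hsp90ab1* outweighed *Hsp90b1* by 3.0 times and 1.23 times. The cytosolic lead over the ER forms was therefore smaller in the TSA library for HSP70 and for HSP90, by measures that no scaling moves.

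**Figure D5:**
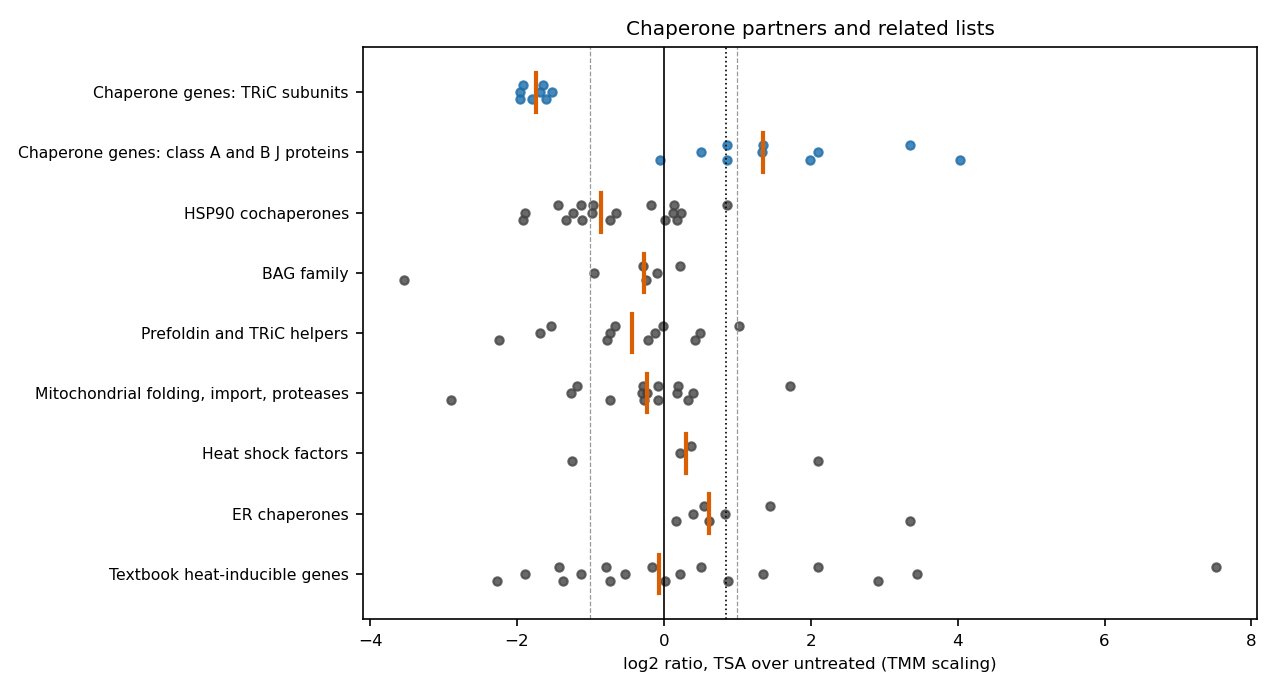
Log2 ratio of each tested gene (points) and the median (orange bar) for the TRiC subunits, the class A and B J proteins and 7 related lists, with TMM scaling; dashed lines mark 2-fold and the dotted line equal shares of total counts. The TRiC subunits form the tightest group, the ER chaperones all lie right of 0, and the heat-inducible genes spread from *Serpinh1* to *Hspb8*.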

How the data were processed

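PolyA RNA of 1 untreated and 1 TSA liver library was analysed from tables of counts and FPKM. The deposited counts are unscaled reads per gene symbol and the deposited FPKM these counts over gene model length and library total, per the file headers and values. The length this implies was the same in both libraries, to within 0.1 base, in each of 14271 genes counted in both. The submitters' processing notes name Bowtie2, HISAT2, Trimmomatic and DESeq without roles. Build, annotation, counter and strand: not given in the sources used here. Reads of overlapping genes and close copies may be shared.

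Scaling used TMM (edgeR 4.0.16, R 4.3.3; factors 1.34 untreated and 0.744 TSA), with total counts, DESeq2 1.42.0 size factors and upper quartiles as alternatives. Intervals are exact conditional binomial (Clopper-Pearson), computed in Python 3.11.15 with scipy 1.17.1. They were checked only on simulated Poisson counts without variation between animals, which is the case these intervals assume. The files give no molecular identifiers, so intervals cover counting error only, and variation between animals is not measured. Shared stretches are runs of 50 bases of the longest coding (or pseudogene) transcript found, on either strand, in GENCODE M21 transcripts of other genes. All members are accounted for; named in full are the non-J genes, called J genes, the 3 most abundant per class, and in other lists the 2 most abundant and 2 most different. Members and lists were chosen with earlier results of these data known.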

Additional observations from a re-analysis of the deposited data

How the results depend on the processing

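No called chaperone gene changed direction in any alternative run, but none could have. The other scalings move every ratio by less than the 2-fold that a call needs. A different count minimum or threshold moves no ratio. A value added to FPKM only draws the total count ratio towards equality. The unchanged directions are therefore no evidence of robustness, and the numbers of calls are compared instead. Scaling by total counts and the FPKM values with 0.1 added each left 10 of the 16 higher genes, and FPKM with 1 added left 8; the lower count was 34, 34 and 32, against 23. Of all genes, 16.0%, 15.2% and 11.7% were higher in these runs, and 48.7%, 47.5% and 39.1% were lower. DESeq2 size factors and upper quartiles kept all 16 higher and 22 of the 23 lower genes. A 4-fold threshold left 9 higher and 4 lower genes, where 15% of all genes were higher and 12.6% lower. Without the divergent HSP70 genes, the pseudogene and the J proteins of classes A to C other than the mitochondrial ones, 8 of 34 genes were higher and 16 lower. Without any J protein gene, 7 of 31 genes were higher and 16 lower. The shares of all genes beside both counts were 26.0% higher and 27.4% lower. The median relative to all genes, -0.05, was -0.25 from 100 summed counts, -0.15 from 1 count and -0.22 from FPKM with 1 added. Without the 20 most abundant genes of either library the chaperone share was 1.39% (untreated) and 0.539% (TSA). That share covers 64 chaperone genes, because *Hsp90ab1*, *Hspa8* and *Hspd1* are among the genes removed. No library could be left out, and no paired analysis was possible because each group has 1 library. Genes under about 100 counts, such as *Hspb7* and *Hspa12b*, are limited by depth.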

Other observations

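The E-box CACGTG, the sequence that MYC and its partner MAX are known to bind, stood in a promoter window of 6 of the 53 chaperone genes with a window (11.3%), against 11.5% of the 10035 tested genes with one. It stood in 3 of 18 lower genes and in none of 14 higher genes. The CCAAT box, read on both strands (CCAAT or ATTGG), stood in 35.8% of the chaperone genes and 42.9% of tested genes. Neither share is set apart from the background here, and a match is not a binding site.

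Chaperone genes often have near copies elsewhere in the genome. Of 66 members with a transcript, 18 had more than 10% of their 50-base stretches in transcripts of other genes and 34 had under 1%. The shares were 74.8% for *Hspa8*, 58.5% for *Hsp90aa1* and 51.6% for *Hspb1*. Among genes called lower, *Tcp1* (22.2%), *Hspa14* (15.6%) and *Dnajc2* (10.9%) also lay over 10%. The share was 0% for *Cct2*, *Cct5*, *Hspb8*, *Hspa2*, *Dnajb4* and *Dnajc6*. The genes with the most extreme ratios of the set, *Hspb8* and *Dnajc6*, thus shared none.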
